A study of Danio rerio with 9 samples.

Results

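Crystallins are the abundant soluble proteins of the eye lens. All rows of the deposited gene tables whose symbol names an alpha, beta or gamma crystallin were taken, cryptochromes excluded, which gave 39 of 22337 genes: 2 alpha, 7 beta A, 5 beta B, 23 gamma M and 2 gamma N crystallins. RNA had been sequenced from 9 whole zebrafish embryos, 1 embryo per library, kept at 29 °C to an age of about 25 hours, with 20461180 to 59233104 counts per library. They fell into 5 embryos with coloboma (numbers 3, 4, 5, 6 and 7), an eye defect in which the choroid fissure fails to close, and 4 normal embryos (numbers 3, 4, 6 and 7). Every embryo of both groups came from matings in which each parent carried the allele zic2aGBT133 over + and the allele zic2bUW1127 over +, so that siblings of several genotypes are possible in either group, and no label stated the genotype of a single embryo, although the data columns of the normal embryos carry the tag WT. No treatment was named. The study concerns how zic2 acts on periocular neural crest and fissure morphogenesis, and the comparison here asks whether crystallin transcripts differed between siblings with and without coloboma.

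Lens fiber cells fill themselves with crystallins as they differentiate. Alpha crystallins belong to the small heat shock proteins and act as chaperones that keep other proteins in solution, while beta and gamma crystallins share a common fold and give the lens its density and refractive power. Gamma M crystallins are methionine-rich proteins typical of fish lenses, and many are encoded by tandem copies with closely similar sequences. Reads from such copies cannot always be assigned to 1 gene, so that single values of the 20 crygm2d genes are less certain than their sum.

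Coloboma embryo 3 had almost no crystallin transcripts. Crystallins took 0.00734% of all counts in coloboma embryo 3, and 0.235%, 0.383%, 0.287% and 0.345% in coloboma embryos 4, 5, 6 and 7, against 0.273%, 0.198%, 0.148% and 0.230% in normal embryos 3, 4, 6 and 7. The other 4 coloboma embryos thus spanned a range that lay mostly above that of the normal embryos and overlapped it. The group means were 0.251% ± 0.148 (SD, n = 5) in coloboma and 0.212% ± 0.0530 (SD, n = 4) in normal embryos. Without coloboma embryo 3 the coloboma mean was 0.312% ± 0.0649 (SD, n = 4). In coloboma embryo 3 the share rested on 2336 crystallin counts of 31838511 (exact 95% binomial interval 0.00704% to 0.00764%, counting error only), so that depth did not limit this difference. Because whole embryos were sequenced, fewer lens cells and less RNA per lens cell cannot be told apart. The labels say neither how severe the coloboma of embryo 3 was nor whether its eye tissue was complete, and the part of either in its value was not tested.

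**Figure D1:**
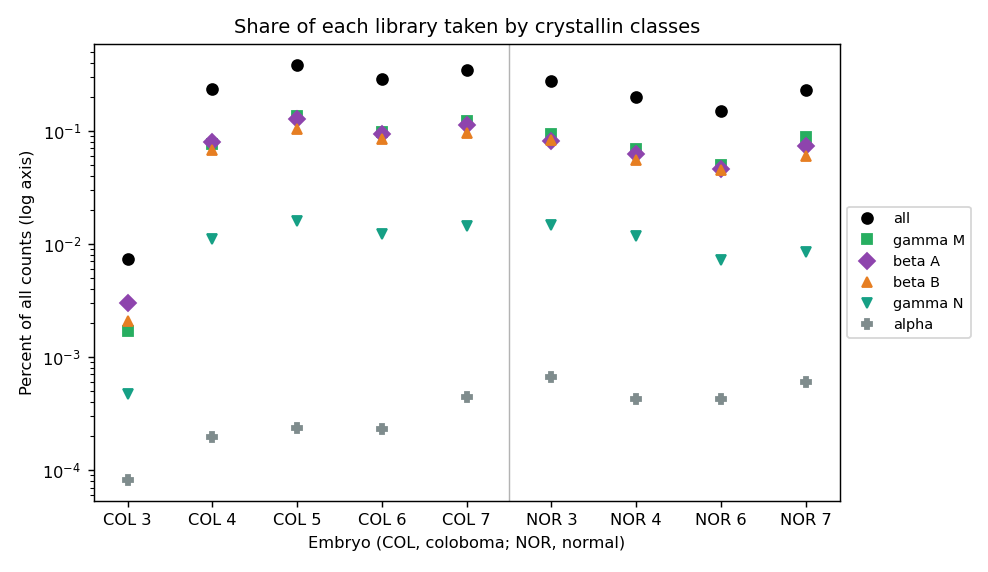
Percent of all counts taken by all crystallins and by each class (log axis) in each embryo, coloboma embryos left of the line and normal embryos right of it. Coloboma embryo 3 lies at 0.00734% for all crystallins, below the 0.148% of the lowest other embryo.

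By counts, the 3 large classes contributed nearly equal parts. On TPM, which is scaled by length, they lay further apart. In normal embryos gamma M, beta A and beta B crystallins took 0.172%, 0.120% and 0.0902% of all TPM. In the coloboma embryos other than number 3 they took 0.249%, 0.189% and 0.131%. In the coloboma embryos other than number 3, gamma M crystallins made up 34.3% ± 1.42 of the crystallin counts, beta A crystallins 33.0% ± 0.667 and beta B crystallins 28.2% ± 0.994 (SD, n = 4). In the normal embryos the same shares were 35.2% ± 2.13, 30.9% ± 0.970 and 28.7% ± 2.08 (SD, n = 4). Gamma N crystallins held 4.31% ± 0.241 in these coloboma and 4.94% ± 0.954 in normal embryos. Alpha crystallins held only 0.0884% ± 0.0284 in these coloboma and 0.251% ± 0.0298 in normal embryos, 2 ranges that did not overlap. The little crystallin RNA of coloboma embryo 3 had another make-up, with 40.9% beta A, 28.4% beta B, 23.2% gamma M, 6.38% gamma N and 1.11% alpha crystallins. Its alpha counts all came from the alpha B gene cryabb (26 counts), with 0 counts for the alpha A gene cryaa.

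On the length-scaled TPM values, which allow levels of different genes to be compared, crybb1 was the most abundant member. This beta B crystallin gene stood at 15.2, 444, 646, 579 and 643 TPM in coloboma embryos 3, 4, 5, 6 and 7, against 583, 356, 319 and 363 TPM in normal embryos 3, 4, 6 and 7. The groups overlapped, and coloboma embryo 3 was the single low value. Next came cryba1b, a beta A crystallin gene, with 398 ± 228 TPM in coloboma and 311 ± 73.8 TPM in normal embryos (SD, n = 5 and n = 4). The leading gamma gene crygm2d17 had 385 ± 224 TPM in coloboma and 271 ± 67.9 TPM in normal embryos. Ranks 4 to 10 were held by cryba4, crybb1l2, crybb1l1, cryba1l1, crygm2d10, cryba2b and crygm2d8, with means of 242 to 344 TPM in coloboma and 182 to 286 TPM in normal embryos. In coloboma, neighbours in this order differed by less than their SD. The gamma N gene crygn2 reached 166 ± 92.1 TPM in coloboma and 160 ± 46.2 TPM in normal embryos, while its paralog crygn1 was at 3.13 ± 2.72 TPM in coloboma and 1.86 ± 1.11 TPM in normal embryos.

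Summed by class, the alpha crystallins were the scarcest, while single genes of other classes, crygn1, crygmxl1, crybb3 and crygm2d11, had lower mean TPM over all embryos than cryaa. The lens alpha A gene cryaa had 1.88 ± 1.47 TPM in coloboma and 5.19 ± 1.43 TPM in normal embryos (SD, n = 5 and n = 4). The alpha B gene cryabb, which in zebrafish is expressed beyond the lens, was at 0.514 ± 0.175 TPM in coloboma and 0.405 ± 0.340 TPM in normal embryos, on 7 to 40 counts per embryo. At 16 to 53 counts per embryo crybb3 was about as rare, with 1.24 ± 0.246 TPM in coloboma and 1.32 ± 0.419 TPM in normal embryos. It was chosen after its values were seen.

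The deficit was largest for gamma M crystallins, whose share of all counts was 53.6 times higher in the median of the other 8 embryos than in coloboma embryo 3, followed by beta B (36.2), beta A (26.7), gamma N (25.7) and alpha crystallins (5.18). The alpha counts of coloboma embryo 3 were those of cryabb alone. Of the 39 members, 36 had their lowest level in coloboma embryo 3, where 17.1% of all tested genes had theirs. Levels of the same gene in different embryos are given from here on as CPM, counts scaled to library size. Of the 32 members with more than 3 counts in coloboma embryo 3, the median over the other 8 embryos was at least 10 times higher for 29, and the median ratio over the 32 was 32.3. The largest of these ratios, 212, belonged to crygm2d3, on 4 counts. Among the abundant genes the ratio was 30.8 for crybb1, 29.1 for cryba1b, 39.9 for crygm2d17, 26.9 for crygn2 and 16.2 for cryba2b. No count at all was found there for cryaa, crygm2d9 and crygm2d6, although every member was counted in each of the other 8 embryos. Against a floor of 3 counts in that library, cryaa was at least 34.9-fold, crygm2d9 at least 78.8-fold and crygm2d6 at least 100.001-fold lower in coloboma embryo 3 than in the median of the other 8. The other 4 members had 1 or 2 counts there.

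The 3 members that were not lowest in coloboma embryo 3 were crygn1, crybb3 and cryabb. The level of crygn1 was 0.574, 0.116, 3.89, 2.002 and 1.72 CPM in coloboma embryos 3 to 7, against 1.22, 1.504, 0.970 and 0.123 CPM in normal embryos 3, 4, 6 and 7. It was low in 1 embryo of each group, coloboma embryo 4 and normal embryo 7. For crybb3 the level was 1.15 CPM in coloboma embryo 3, and 0.660 to 0.940 CPM in the other 4 coloboma embryos, against 0.485 to 1.08 CPM in normal embryos. For cryabb it was 0.878 CPM in coloboma embryo 3, and 0.369 to 0.887 CPM in the other 4 coloboma embryos, against 0.143 to 0.693 CPM in normal embryos. Thus crybb3 and cryabb were not lower in the embryo that lacked most crystallin RNA. Their shares of its crystallin counts, 1.46% and 1.11%, were accordingly above their shares elsewhere, which reached 0.0631% and 0.0495% at most.

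**Figure D2:**
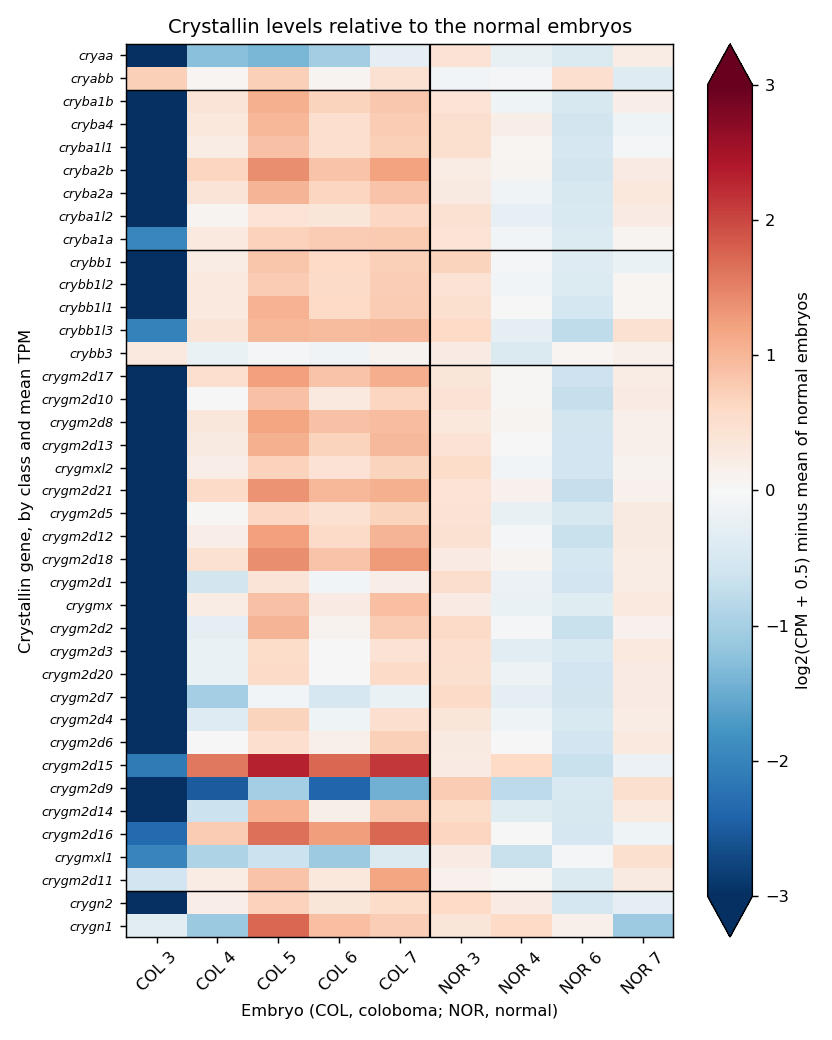
Level of the 39 crystallins in each embryo, as log2(CPM + 0.5) minus the mean of the 4 normal embryos, with rows ordered by class and mean TPM and the colour scale clipped at 3. The column of coloboma embryo 3 is blue for all but a few rows, crybb3 and cryabb among them, and rows such as crygm2d15 and crygm2d9 differ in opposite directions between the groups.

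Crystallins also varied among the remaining embryos. The SD of log2(CPM + 0.5) between embryos had a median over the members of 2.14 in the 5 coloboma embryos, of 0.33 without coloboma embryo 3 and of 0.44 in the 4 normal embryos. Over all 21293 genes tested the same medians were 0.19, 0.18 and 0.17. The 90th percentile of all genes was exceeded by 12 of the 39 members in the coloboma embryos other than number 3 and by 29 in the normal embryos. The members moved together: among normal embryos, number 3 had the highest level for 30 members and number 6 the lowest for 34. Among coloboma embryos, number 5 had the highest level for 29 members, and number 4 was the lowest of the other 4 for 37.

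Other lens genes were low in coloboma embryo 3 as well. Of 16819 genes with at least 1 CPM in each of the other 8 embryos, 57 (0.339%) were at or below 1/4 of the lowest of those 8 values in coloboma embryo 3. This group held 34 crystallins, all that met the 1 CPM limit, and 23 other genes, and that embryo was singled out with its crystallin level known. Among the 23, 10 belonged to a list of 18 measured lens fiber genes for membrane, cytoskeleton and metabolism. The aquaporin 0 genes mipb and mipa, lens water channels, had 2.03 and 6.35 CPM in coloboma embryo 3, where the lowest values in the other 8 embryos were 49.7 and 76.2 CPM. The beaded filament gene bfsp2 had 0.270 CPM against a lowest other value of 4.73 CPM, and the lens membrane protein gene lim2.3 had 0.709 CPM against 11.7 CPM. Lens connexin genes cx23, cx44.1 and cx50.5 and the membrane genes lim2.1 and lim2.4 belonged to the same group, as did grifin, a lens galectin. The calpain protease gene capn3a was 65.5 times below its lowest other value, at 0.709 CPM against 46.5 CPM. Also among the 10 lowest ratios were lctla, abhd2b, zgc:110053, si:ch211-274p24.3 and CT027576.1, the last with no count in coloboma embryo 3. In the opposite direction, 1 gene was at least 4 times above the highest other embryo with at least 4 CPM there.

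**Figure D3:**
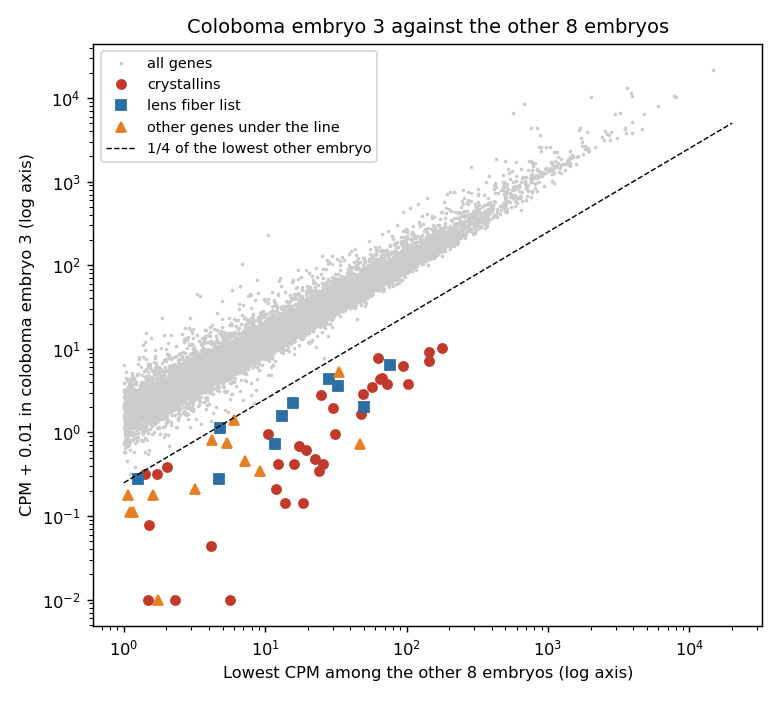
Level of each gene in coloboma embryo 3 (CPM + 0.01) against the lowest level among the other 8 embryos (CPM), both on log axes, for 16819 genes. At or below the dashed line at 1/4 of the lowest other embryo lie 34 crystallins, 10 lens fiber genes and 13 genes outside that list. Most of the remaining genes lie well above it.

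Lens fiber genes were low as a group in that embryo, while lens regulators were mixed. The summed level of the 18 fiber genes was 184 CPM in coloboma embryo 3, and 586 to 738 CPM in the other 4 coloboma embryos, against 422 to 596 CPM in normal embryos, and 14 of the 18 were lowest in coloboma embryo 3. One of them, lgsn, was at 0 counts there. Of the 184 CPM, 96.9 CPM came from epha2a, which was highest there of all 9 embryos, and 60.9 CPM from fabp11a. The median ratio of the other 8 embryos to coloboma embryo 3, over the fiber genes counted there, was 9.21. For 17 transcription factor genes of lens development the sum was 446 CPM in coloboma embryo 3, and 470 to 525 CPM in the other 4 coloboma embryos, against 486 to 576 CPM in normal embryos. Of the 17, 8 were lowest in coloboma embryo 3, where 17.1% of all tested genes were lowest. They were pitx3, hsf4, six3a, six3b, pax6a, pax6b, sox1a and sox1b. For hsf4 the median of the other 8 embryos was 7.15 times higher than in coloboma embryo 3. For the others this ratio ran from 1.36 (sox1a) to 2.66 (six3a). Many of the 17 factors also act outside the lens. The lens epithelium factor foxe3 was at 2.84 CPM in coloboma embryo 3, below the 3.25 to 5.27 CPM of the other 4 coloboma embryos and within the 2.02 to 4.08 CPM of normal embryos. The lens factor pitx3 was at 8.65 CPM there, below the 17.9 to 24.7 CPM of the other 4 coloboma embryos and the 15.9 to 19.2 CPM of normal embryos. Heat shock factor gene hsf4, which acts in fiber differentiation, was at 0.169 CPM there, and at 1.24 to 1.92 CPM in the other 4 coloboma embryos, against 0.624 to 1.17 CPM in normal embryos. In the opposite direction, mafa (25.7 CPM), mafba (19.0 CPM) and maf (15.4 CPM) were at their highest of all 9 embryos in coloboma embryo 3.

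Retinal and pigment markers were lower in sum in the same embryo, and muscle markers higher. The summed level of 18 retinal progenitor and optic cup genes was 182 CPM in coloboma embryo 3, and 263 to 323 CPM in the other 4 coloboma embryos, against 258 to 339 CPM in normal embryos, with 14 of 18 lowest there and none at 0. For 8 pigment epithelium and melanin genes the sum was 309 CPM there, and 337 to 431 CPM in the other 4 coloboma embryos, against 414 to 464 CPM in normal embryos. The sum of 20 skeletal muscle genes was 66379 CPM there, and 42144 to 58863 CPM in the other 4 coloboma embryos, against 27312 to 45279 CPM in normal embryos. The part of these differences in the crystallin result was not tested.

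No crystallin passed the test between coloboma and normal embryos when all 9 were used. Of the 39 members, 0 had an adjusted p under 0.05 (edgeR quasi-likelihood test, Benjamini-Hochberg over all genes), where 0.207% of the 21293 genes tested passed, 0.0798% higher in coloboma. At an unadjusted p under 0.05 there were 4 members, 1 higher and 3 lower in coloboma, against 11.7% of all genes (6.78% higher and 4.9% lower). The higher one was crygm2d15 and the lower ones crygm2d9, crygmxl1 and cryaa. DESeq2, which called 2.7% of all genes, and limma-voom, which called 0.225%, also called 0 members. The levels of the groups did not overlap for 0 higher members, against 2.27% of all genes. Log2 fold changes of coloboma over normal ran from -2.30 to 1.74, with a median of 0.25, against 0.00075 over all genes. The median SE was 0.67 for the members and 0.15 for all genes, and the sign of the members' median turned negative with limma-voom (-0.43), on log2 TPM (-0.47 to -0.58) and with the embryo number as a block (-0.24).

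Without coloboma embryo 3 most crystallins had higher levels in coloboma, but few passed the test. That embryo was singled out with its crystallin level known. As it was lowest for 36 of the 39 members, leaving it out by itself raises their coloboma values. The log2 fold change was above 0 for 33 of 39 members (84.6%, against 50.3% of all genes), and the median was 0.57, against 0.0016 over all genes. One member passed the adjusted threshold (edgeR), where 0.16% of all genes did, 0.0611% in the same direction, higher in coloboma. In limma-voom 1 member passed too, against 0.0846% of all genes in that direction. DESeq2 called 12 members without that embryo, 10 higher and 2 lower, where it called 2.09% of all genes, 1.19% in the higher direction. Among the 12 were crygm2d15, crygm2d16 and crygm2d9 (adjusted p = 1.2e-09, 0.00044 and 0.0199 by DESeq2). At an unadjusted p under 0.05 there were 24 members, 21 higher and 3 lower, against 11.2% of all genes (6.31% higher and 4.85% lower). Levels of the groups did not overlap for 8 members that were higher (3.42% of all genes) and 1 that was lower in coloboma (3.08%). Since crystallins of 1 lens vary together, these counts do not stand for independent genes.

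The member that passed was crygm2d15, a gamma M crystallin gene. Its level was 0.304, 10.1, 17.0, 11.2 and 14.7 CPM in coloboma embryos 3, 4, 5, 6 and 7, against 3.66, 4.85, 1.72 and 2.64 CPM in normal embryos 3, 4, 6 and 7. All coloboma embryos but number 3 lay above every normal embryo. The log2 fold change was 1.74 ± 0.68 (SE; adjusted p = 0.353 by edgeR) with all embryos and 2.05 ± 0.29 (SE; adjusted p = 0.0242 by edgeR) without coloboma embryo 3. The two-sided exact permutation p was 0.302 with all embryos and 0.0286, the smallest that 70 splits allow, without that embryo. The embryo left out held the lowest level of crygm2d15 and was picked with its crystallin level known.

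Its paralog crygm2d9 was lower in every coloboma embryo than in any normal embryo. It had 0, 2.29, 7.25, 2.56 and 5.34 CPM in coloboma embryos 3 to 7, against 26.2, 8.73, 11.0 and 21.6 CPM in normal embryos 3, 4, 6 and 7. This was the case for 1 of 39 members on the lower side, against 2.16% of all genes. The log2 fold change of -2.30 ± 0.68 (SE) missed the threshold (adjusted p = 0.210 by edgeR), and was -1.99 ± 0.44 (SE; adjusted p = 0.147 by edgeR) without coloboma embryo 3. The two-sided exact permutation p was 0.0159, the smallest that 5 against 4 embryos allow.

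The lens chaperone gene cryaa was at 0, 1.63, 1.48, 1.98 and 3.78 CPM in coloboma embryos 3 to 7, against 6.37, 3.91, 3.29 and 5.48 CPM in normal embryos 3, 4, 6 and 7. Coloboma embryo 7 overlapped the normal range and the others lay below it. The log2 fold change was -1.38 ± 0.61 (SE; adjusted p = 0.419 by edgeR) and the exact two-sided permutation p 0.0317. Without coloboma embryo 3, where cryaa had no count, the log2 fold change was -1.07 ± 0.31 (SE; adjusted p = 0.243 by edgeR) and the exact permutation p 0.0571. In 1 of 26 alternative fits cryaa passed the threshold. For crygmxl1, a gamma M gene of the same cluster as crygm2d9, levels were 0.0338, 0.602, 0.838, 0.487 and 1.05 CPM in coloboma embryos 3 to 7, against 1.98, 0.825, 1.51 and 2.43 CPM in normal embryos 3, 4, 6 and 7. Its log2 fold change was -1.47 ± 0.52 (SE; adjusted p = 0.303 by edgeR) and the exact two-sided permutation p 0.0476. Without coloboma embryo 3 they were -1.19 ± 0.36 (SE; adjusted p = 0.262 by edgeR) and 0.0857 (exact). These permutation p-values were not adjusted, and apart from cryaa and crygm2d15 the genes of this comparison that lie outside the 10 most abundant were picked with their values already seen.

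Neither cryba2b nor crybb1, both among the 10 most abundant members, passed the edgeR test, while cryba2b passed the threshold in 1 of 26 alternative fits. The beta A gene cryba2b had 7.80, 143, 244, 166 and 212 CPM in coloboma embryos 3 to 7, against 108, 97.7, 62.3 and 109 CPM in normal embryos 3, 4, 6 and 7. Its log2 fold change was 0.71 ± 0.63 (SE; adjusted p = 0.709 by edgeR) with all embryos and 1.02 ± 0.20 (SE; adjusted p = 0.114 by edgeR) without coloboma embryo 3. For crybb1 the log2 fold change was 0.24 ± 0.67 (SE; adjusted p = 0.919 by edgeR) with all embryos and 0.55 ± 0.22 (SE; adjusted p = 0.394 by edgeR) without coloboma embryo 3.

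With all 9 embryos, log2 fold changes of single members depended on the method. Over limma-voom, the embryo number as a block and log2 TPM with 3 pseudocounts, the log2 fold change of cryba2b lay between 0.0057 and 0.11, that of crygm2d16 between 0.08 and 0.76 and that of crygm2d15 between 0.95 and 1.25. That of crygm2d9 lay between -3.99 and -2.54, that of cryaa between -2.76 and -1.25, that of crygmxl1 between -2.05 and -1.001 and that of crygm2d7 between -1.73 and -1.23. None of these members passed the adjusted threshold in those settings, and crybb1 turned negative in all of them (-0.51 to -0.20).

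To set aside how much crystallin RNA an embryo had, each gene was expressed as a share of the embryo's crystallin counts. The share of crygm2d15 was 0.385%, 0.426%, 0.439%, 0.378% and 0.427% in coloboma embryos 3 to 7, against 0.133%, 0.247%, 0.123% and 0.123% in normal embryos 3, 4, 6 and 7. On this scale coloboma embryo 3 fell among the other coloboma embryos, although its share came from 9 of 2336 counts (exact 95% binomial interval 0.176% to 0.730%). For crygm2d9 the shares were 0%, 0.0962%, 0.188%, 0.0866% and 0.155% in coloboma embryos 3 to 7, against 0.9496%, 0.444%, 0.782% and 1.01% in normal embryos. By the floor of 3 counts, the 0 of 2336 counts in coloboma embryo 3 allow a share of up to 0.128%. The upper limit of the exact 95% binomial interval was 0.158%, and both lie below the lowest normal embryo. The ratio of crygm2d15 to crygm2d9 counts was 2.34 to 4.42 in the 4 coloboma embryos with both, against 0.122 to 0.556 in the normal embryos. These genes were paired because they differed in opposite directions. As neither share overlapped between the groups, their ratio could not overlap either, so that it adds no separate evidence.

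Across all 9 embryos the shares of the groups did not overlap for 9 of 39 members, 2 higher and 7 lower in coloboma. The higher ones were crygm2d15 and cryba2b. Of crystallin counts, cryba2b held 6.80% ± 1.75 in coloboma and 4.61% ± 0.539 in normal embryos (SD, n = 5 and n = 4). Coloboma embryo 3 had the highest cryba2b share, 9.89%, and the coloboma mean without it was 6.03% ± 0.296 (SD, n = 4). The lower ones were crygm2d9, crygm2d7, crygm2d1, crygm2d3, crygm2d4, crygm2d20 and cryaa. Of these, crygm2d7 held 0.581% ± 0.0608 in coloboma and 1.28% ± 0.154 in normal embryos, and cryaa held 0.0567% ± 0.0405 in coloboma and 0.230% ± 0.0237 in normal embryos. The level of crygm2d7 had a log2 fold change of -0.80 ± 0.63 (SE; adjusted p = 0.675 by edgeR). For the levels of crygm2d1, crygm2d3, crygm2d4 and crygm2d20 the log2 fold changes were -0.34, -0.14, -0.12 and -0.09 with all embryos. Without coloboma embryo 3 they were -0.03, 0.18, 0.19 and 0.22. A lower share of these genes was thus not a lower level in those embryos, and their levels overlapped between the groups. For crygm2d16 the share was 0.0856% in coloboma embryo 3, on 2 counts, and 0.180% to 0.259% in the other 4 coloboma embryos, against 0.0974% to 0.143% in normal embryos. Its level had a log2 fold change of 1.19 ± 0.70 (SE; adjusted p = 0.554 by edgeR) with all embryos and 1.51 ± 0.31 (SE; adjusted p = 0.126 by edgeR) without coloboma embryo 3. No test was made on shares, because they depend on each other, and other genes have no such share to serve as background.

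**Figure D4:**
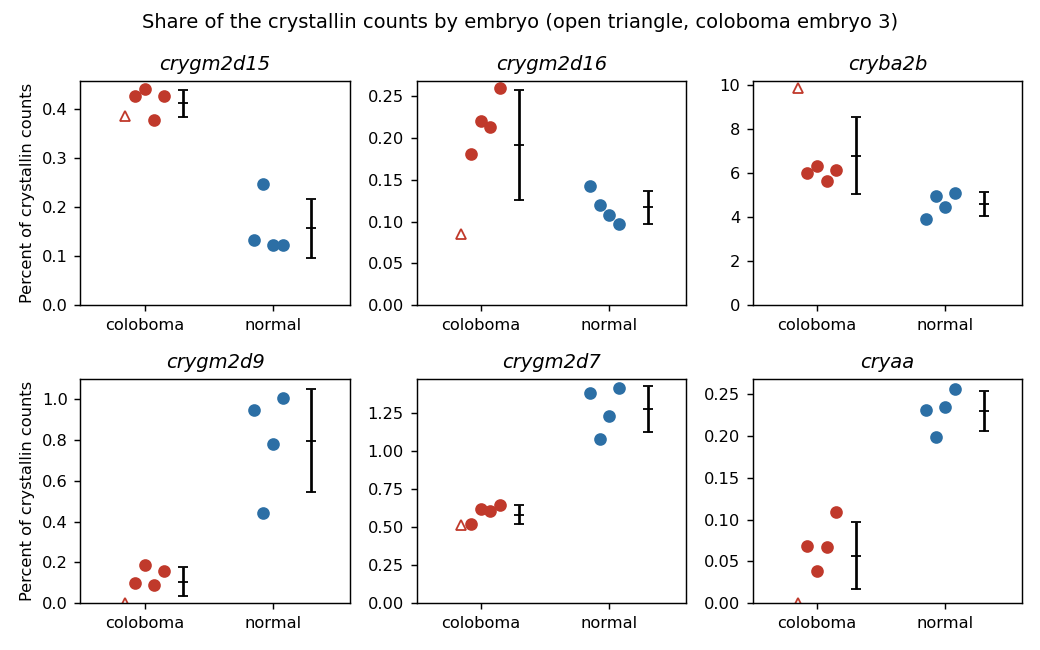
Share of the crystallin counts of an embryo held by 6 genes, by embryo, with mean ± SD of 5 coloboma and 4 normal embryos (bars to the right) and axes starting at 0; the open triangle is coloboma embryo 3. Shares of crygm2d15 are 0.378% to 0.439% in coloboma, all above the normal embryos, and those of crygm2d9, crygm2d7 and cryaa are all below them.

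As shares of crystallin counts, and coloboma embryo 3 aside, the shifts among crygm2d copies nearly cancelled in their sum. The 20 crygm2d genes together held 30.7% ± 1.44 of crystallin counts in the 4 coloboma embryos other than number 3, against 31.3% ± 1.98 in normal embryos (SD, n = 4 each), and 17.2% in coloboma embryo 3. Their summed level was 13.5, 686, 1230, 897 and 1099 CPM in coloboma embryos 3 to 7, against 845, 606, 412 and 729 CPM in normal embryos 3, 4, 6 and 7. Without coloboma embryo 3 the mean summed level was 978 ± 238 CPM in coloboma, against 648 ± 185 CPM in normal embryos (SD, n = 4 each). How the authors' estimator divided reads between these copies, and how far sequence variants of the copies affected that, was not tested.

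By the RefSeq gene table of assembly GRCz12tu, used only for which genes lie together, all 39 members could be placed, and 22 lay on the chromosome that carries zic2a: cryba2b and 21 gamma M genes that form 1 cluster. Without coloboma embryo 3 the share of crystallin counts was higher in coloboma with no overlap for 5 of these 21 genes and lower for 7. In the order along the cluster the 5 were the genes at places 4 (crygm2d15), 5 (crygm2d18), 6 (crygm2d17), 9 (crygm2d16) and 18 (crygm2d21). The 7 were at places 1 (crygmxl1), 12 (crygm2d20), 14 (crygm2d9), 15 (crygm2d4), 16 (crygm2d7), 17 (crygm2d3) and 21 (crygm2d1). The places number these 21 genes only, as RefSeq holds 4 other crystallin symbols and 2 non-crystallin entries inside the cluster. Outside the cluster only cryba2b (higher) and cryaa (lower) had shares without overlap in the same embryos. These shares depend on each other and have no background from other genes. In levels, only crygm2d9 was lower without overlap in those embryos (3.08% of all genes). The 8 higher members (3.42% of all genes) were crygm2d8, crygm2d15, crygm2d16, crygm2d17, crygm2d18, crygm2d21, cryba2b and, on another chromosome, cryba2a. As no embryo's genotype was given, linkage to zic2a and the coloboma phenotype cannot be told apart for genes on the zic2a chromosome. The same holds for linkage to zic2b and the 3 members that lay on the zic2b chromosome. The gene order in the fish used may differ from that of the assembly.

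**Figure D5:**
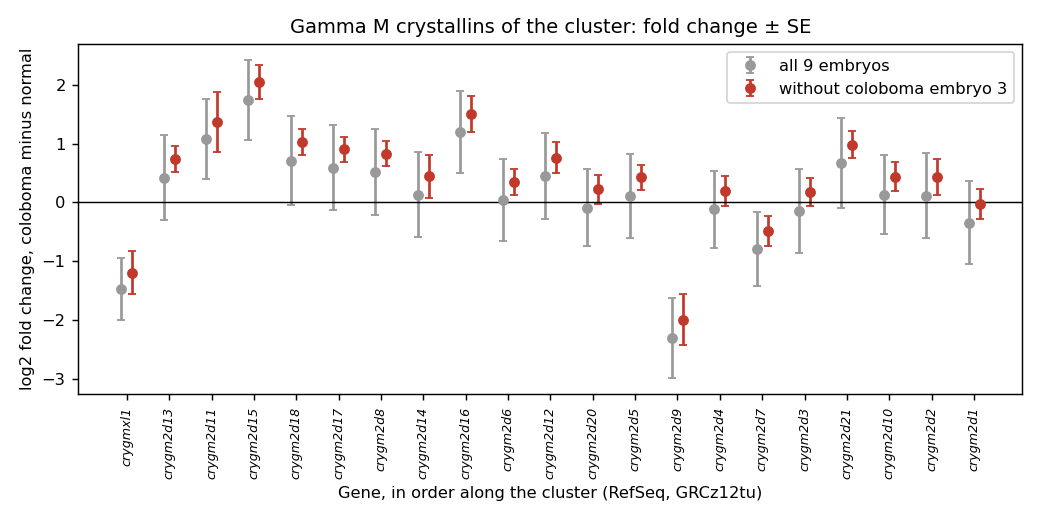
Log2 fold change of coloboma over normal (points) with SE (bars) for the 21 gamma M genes in their order along the cluster, from all 9 embryos and without coloboma embryo 3. Values without that embryo run from -1.99 for crygm2d9 to 2.05 for crygm2d15.

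Lists of other lens genes gave no call between the groups. Of 18 lens fiber genes 0 passed (edgeR, adjusted p under 0.05). Their median log2 fold change was 0.14 with all embryos and 0.37 without coloboma embryo 3. With all embryos 11 of the 18 were above 0 (50.1% of all genes), and without that embryo 15 (50.3% of all genes). As 14 of the 18 were lowest in coloboma embryo 3, leaving it out by itself raises their coloboma values. The member with the smallest adjusted p without that embryo was mipa (adjusted p = 0.0977 by edgeR). Of 17 lens regulators 0 passed, with a median of -0.01. Of the markers of other tissues, 0 of 18 retinal, 0 of 8 pigment and 1 of 20 muscle genes passed, against 0.207% of all genes. The muscle gene was myhz1.2, higher in coloboma with all embryos (adjusted p = 0.0490 by edgeR) but not past the threshold without coloboma embryo 3 (adjusted p = 0.0747 by edgeR). The median log2 fold changes of these lists were -0.31, -0.38 and 0.61 with all embryos. The basic leucine zipper factor maf, which activates crystallin genes in the lens and is also expressed elsewhere, was at 15.4, 13.9, 12.8, 12.9 and 11.9 CPM in coloboma embryos 3 to 7, against 9.20, 9.51, 8.84 and 9.75 CPM in normal embryos 3, 4, 6 and 7. Of the 17 lens regulators it had the smallest adjusted p. The groups did not overlap, as was so for 2.27% of all genes in that direction. The log2 fold change of 0.52 ± 0.10 (SE) missed the threshold (adjusted p = 0.0705 by edgeR), which maf passed in 3 of 26 alternative fits. Members of other lists did not overlap either, such as bhlhe40 (higher) and vsx1 (lower in coloboma). Coloboma embryo 3, with the least crystallin RNA, had the highest level of maf.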

How the data were processed

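The authors' deposited estimated counts, 1 whole number per gene symbol and embryo, were handled as the output of RSEM, named in the submitters' processing notes (CASAVA 1.8.2, RSEM 1.2.18, Bowtie 1.1.1, build Zv9). The annotation was not given in the sources used here. Rounding changed 0 values. The deposited TPM values, by the authors, served for levels between genes and as an alternative. Libraries had been made from total RNA with a kit that does not mark strand, per the labels' protocols. Total counts were 20461180 to 59233104 in coloboma and 40951722 to 54681474 in normal embryos.

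Counts were tested with edgeR 4.0.16 in R 4.3.3 over the whole table: filterByExpr (minimum count 10), TMM factors, quasi-likelihood F test, no covariate, Benjamini-Hochberg, threshold 0.05. The SE came from the fold change and F. CPM used the TMM-scaled library sizes. Single genes were compared by two-sided exact permutation of log2(CPM + 0.5) (scipy 1.17.1). Intervals (95%) and the floor of 3 counts cover counting error only. The steps were tested on simulated data. Alternatives used DESeq2 1.42.0, limma 3.58.1 (voom, or log2(TPM + pseudocount)), other scalings and filters, and left out each embryo.

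Embryos of 1 group differed beyond sampling noise (chi-square per degree of freedom 26.2 to 75.7). The labels name no batch. Members, lists and tests were chosen with earlier results of these data known. Named were the 10 members with the highest mean TPM, the 3 of each class with the highest counts and members past the threshold. The same rule named the 10 other genes with the lowest ratio in coloboma embryo 3, and list members with the smallest p. Further list members were named outside this rule, with their values in coloboma embryo 3 already seen. Among them were foxe3, pitx3, hsf4, epha2a, fabp11a and lgsn.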

Additional observations from a re-analysis of the deposited data

Results flagged for a closer look

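Of 100 groups of values looked at (levels of the 39 crystallins and shares of their classes, in coloboma and in normal embryos), 5 held an embryo whose gap to the nearest other, relative to the range of its group, exceeded Dixon's 95% critical value, and all 5 were coloboma embryo 3. Chance flags about 1 in 20 such groups. As a share of crystallin counts, its alpha crystallins (1.11%, against 0.128% in the nearest other coloboma embryo), beta A crystallins (40.9%, against 33.9%) and gamma N crystallins (6.38%, against 4.65%) were high. Its gamma M crystallins (23.2%, against 32.6%) were low. The alpha share of that embryo came from cryabb alone, as cryaa had 0 counts there. The level of crybb1l2 was 7.09 CPM, against 233 CPM in the nearest other coloboma embryo. The levels of the other crystallins in that embryo were not marked, since the other 4 coloboma embryos are themselves spread widely on the CPM scale.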

How the results depend on the processing

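Over 26 alternative fits, the number of crystallins past the threshold was 0 in 20. It was 1 without coloboma embryo 3 in edgeR, limma-voom, RLE scaling, library size alone and log2(TPM + 0.1). In DESeq2 without that embryo it was 12. In that order these fits called 34, 41, 34, 39, 33 and 445 genes over the whole table. The number tested was 21269, and 21293 on log2 TPM. Of these fits, the 5 other than that of edgeR with TMM scaling were chosen after seeing the data. Over the whole table edgeR with all embryos called 44 genes, against 574 in DESeq2 (366 higher, 208 lower), 445 in DESeq2 without coloboma embryo 3, 17 with the replicate block and 21 to 235 when 1 embryo was left out, the last without coloboma embryo 5. With library size as the only scaling the split was 12 higher and 33 lower, where TMM gave 17 and 27. The median log2 fold change of the crystallins was 0.25, and -0.43 in limma-voom, -0.24 with the replicate block and -0.57, -0.58 and -0.47 on log2 TPM with pseudocounts 0.1, 0.01 and 1. The other 21 alternatives, limma-voom and log2 TPM without coloboma embryo 3 among them, gave 0.09 to 0.58; coloboma embryo 5 has no partner in the block, and the cause of the change in sign was not tested. For crybb1 the same settings gave -0.46, -0.20, -0.51, -0.51 and -0.49. Same-numbered embryos did not deviate together (correlations -0.07 to 0.07 in 4 pairs), against -0.16 to 0.12 in pairs with different numbers. With 4 pairs this check cannot exclude a pairing, which the labels do not state.

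As a share of all TPM, crystallins took 0.475% in coloboma and 0.399% in normal embryos, beta A 0.152% and 0.120%, gamma M 0.200% and 0.172%, gamma N 0.0170% and 0.0164%, and beta B 0.0902% in normal embryos. These differ from shares of counts because TPM is scaled by length. Leaving out rows with near-identical copies was not run, as no protein sequences were used here. Depth limits the genes with few counts in coloboma embryo 3.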

Other observations

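Small heat shock protein genes, the wider family of the alpha crystallins, were set beside them in a list of 14 stress genes, of which 0 passed (edgeR, adjusted p under 0.05; lowest adjusted p = 0.292) with a median log2 fold change of 0.11. Their sum was 903 CPM in coloboma embryo 3, and 641 to 828 CPM in the other 4 coloboma embryos, against 630 to 914 CPM in normal embryos. The level of hspb9 was 7.10 to 14.9 CPM in coloboma embryos, against 66.4 CPM in normal embryo 3 and 4.72 to 15.6 CPM in the other normal embryos. For hspb11 it was 3.76 to 8.43 CPM in coloboma embryos, against 21.8 CPM in normal embryo 3 and 3.05 to 4.22 CPM in the other normal embryos. Both genes were picked with their values already seen, and normal embryo 3 is also the normal embryo in which 30 of the 39 crystallins were highest.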
